A study of Mus musculus with 4 samples.

Results

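The genes described here encode the matrix metalloproteinases (Mmp), the membrane-bound ADAM proteases (Adam), the secreted ADAMTS proteases (Adamts), the ADAMTS-like proteins (Adamtsl) and the tissue inhibitors of metalloproteinases (Timp), measured by single-cell RNA sequencing of mouse ovaries. Members were the genes whose symbol joins one of these 5 stems to a number and which held at least 100 unique molecular identifiers (UMIs, each standing for 1 captured RNA molecule) over the 4 libraries together. Of 83 such symbols among 32285 genes, 62 passed, comprising 15 Mmp, 20 Adam, 18 Adamts, 5 Adamtsl and 4 Timp genes. Ovaries came from female littermates aged 8 weeks, which all carried floxed Fosl2 (Fosl2flox/flox), an AP-1 transcription factor subunit gene with LoxP sites around coding exons. The controls are called Fosl2F/F and the mice that also carried Cyp19a1-Cre, in which the aromatase promoter drives the recombinase in granulosa cells (GCs), are called Fosl2cKO. The Cyp19a1-Cre line was on C57BL/6J, and the strain of the floxed line is not given in the sources used here. Each group had 2 libraries from 10x Chromium 3′ v3 chemistry, and the study's design has 2 mice per group. No source used here ties a mouse to a library, and p-values measure the spread between these libraries.

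The libraries held 120327227 to 148836173 UMIs, and 6760 to 19575 cells per library remained after filtering. Library Fosl2F/F 2 stood apart, with a median of 3656 UMIs per cell against 11177 to 12465 in the others. The rule of removing more likely doublets from larger libraries took 19.4% of its cells, against 5.74% to 7.01% in the others. Pairs of libraries shared 15 to 81 cell barcodes, at most 0.763% of the smaller library. In GC-like cells, Fosl2 stood at 170 and 161 CPM (UMIs of a gene per 1000000 UMIs of the class) with edgeR's TMM normalisation in Fosl2F/F and at 162 and 116 in the libraries labelled Fosl2cKO, and did not pass edgeR's test (log2 fold change -0.25, SE 0.20). Both Fosl2F/F libraries lay above both Fosl2cKO libraries in Cox4i2 antral-like (119 and 131 against 93.4 and 90.8 CPM), mitotic-like (124 and 153 against 119 and 91.8 CPM) and Amh preantral-like cells (134 and 138 against 103 and 114 CPM), but not in mural-like (275 and 242 against 327 and 164 CPM), atretic-like (199 and 200.1 against 252 and 150.3 CPM) or cumulus-like cells (109 and 166 against 138 and 121 CPM). Fosl2 passed edgeR's test in none of these subclasses, and in mural-like and atretic-like cells its highest level was in Fosl2cKO 1. The matrices do not show where along the gene these 3′ UMIs lie, so the level does not check the label.

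Mmps cleave collagens, gelatins and other matrix proteins, and most are made as inactive precursors. Adams shed ligands and receptors from the cell surface, Adamts proteases cut proteoglycans such as versican and process procollagens, and Timps bind and block the active site of many of these enzymes. In the ovary, follicle growth, rupture at ovulation and the building and regression of the corpus luteum all involve remodelling of the matrix. Several Mmp genes are textbook targets of AP-1, whose heterodimers bind a short palindrome.

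Because Fosl2 is an AP-1 subunit, the promoters of the members were searched for TGANTCA, in which N is any base and which reads the same on both strands. RefSeq promoters of GRCm38.p6, from 250 bases before to 50 bases after the start, were matched by symbol for 35 of the 62 members, which had 39 promoters. Of these, 4 held the pattern, 10.3%, against 7.81% of 32851 promoters of the same length in the whole table. Among these 4 was Mmp3, with 262 of its 269 UMIs from library Fosl2cKO 1. It held enough UMIs to count as a member only through that library, so the share of 10.3% rests partly on it. The difference between the shares was not tested, and they do not set members apart from other genes. The 4 stretches follow 5′ to 3′, all from the + strand, each with 10 bases on either side of the pattern, which stands in capitals.
Adam19, chr11:46055843-46055869: gtccttcaccTGAGTCAgcgatgctcc
Mmp12, chr9:7347320-7347346: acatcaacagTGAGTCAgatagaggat
Mmp13, chr9:7272469-7272495: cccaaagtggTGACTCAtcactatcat
Mmp3, chr9:7445766-7445792: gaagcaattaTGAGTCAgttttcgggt
The pattern began 131 bases before the start of Adam19, 44 before that of Mmp12, 35 before that of Mmp13 and 46 before that of Mmp3, counted from the start that RefSeq gives. For Mmp12 this start lies inside the gene body that the annotation used below gives. Mmp12, Mmp13 and Mmp3 lie in a cluster of Mmp genes on chromosome 9. A match describes letters only, and the absence of a match in the other 31 members says no more than that these letters are not in that window.

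Cells were clustered without the 62 members among the features, and clusters were named only from markers of which none is a member. Of 13 named classes with at least 20 cells in every library, no class held most members. A member's highest class is the class with its highest mean CPM, computed from the UMIs summed over all cells of that class in a library. Lymphatic endothelial-like cells were highest for 11 members (17.7%, against 8.48% of the 18640 genes with at least 100 UMIs), stromal-like cells for 10 (16.1%, against 5.16%) and macrophage-like cells for 8 (12.9%, against 4.49%). Luteal-like and oocyte-like cells were each highest for 6 (9.68%, against 7.44% and 21.9%), endothelial-like and pericyte or smooth muscle-like cells for 5 each (8.06%, against 5.77% and 3.76%), and dendritic-like, epithelial-like and B lymphocyte-like cells for 3 each (4.84%, against 4.58%, 8.62% and 9.26%). GC-like cells were highest for 1 member only, Adamts2 (1.61%, against 8.41% of genes), as NK or T-like cells were for Adamts14 (against 6.30%). The count for GC-like cells depended on the setting. With only cells over 2000 UMIs, which left 11 classes, Adam18, Adam3, Adamts16 and Adamts6 moved to GC-like cells. Adam18 and Adamts16 also moved there with doublets kept and without integration. Adam18 was low, at 0.505 CPM in GC-like cells with the libraries pooled, and 104 of its 152 UMIs came from Fosl2F/F 1. Theca-like cells were highest for none (against 5.86%). The same class was highest in all 4 libraries for 25 of the 62 members, against 29.7% of all genes. Lymphatic endothelial-like, oocyte-like and B lymphocyte-like cells were few (30 to 159, 20 to 125 and 30 to 53 cells per library), and 6 of the 11 lymphatic members but none of the 6 oocyte-like and none of the 3 B lymphocyte-like members kept that class in all 4 libraries.

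**Figure D1:**
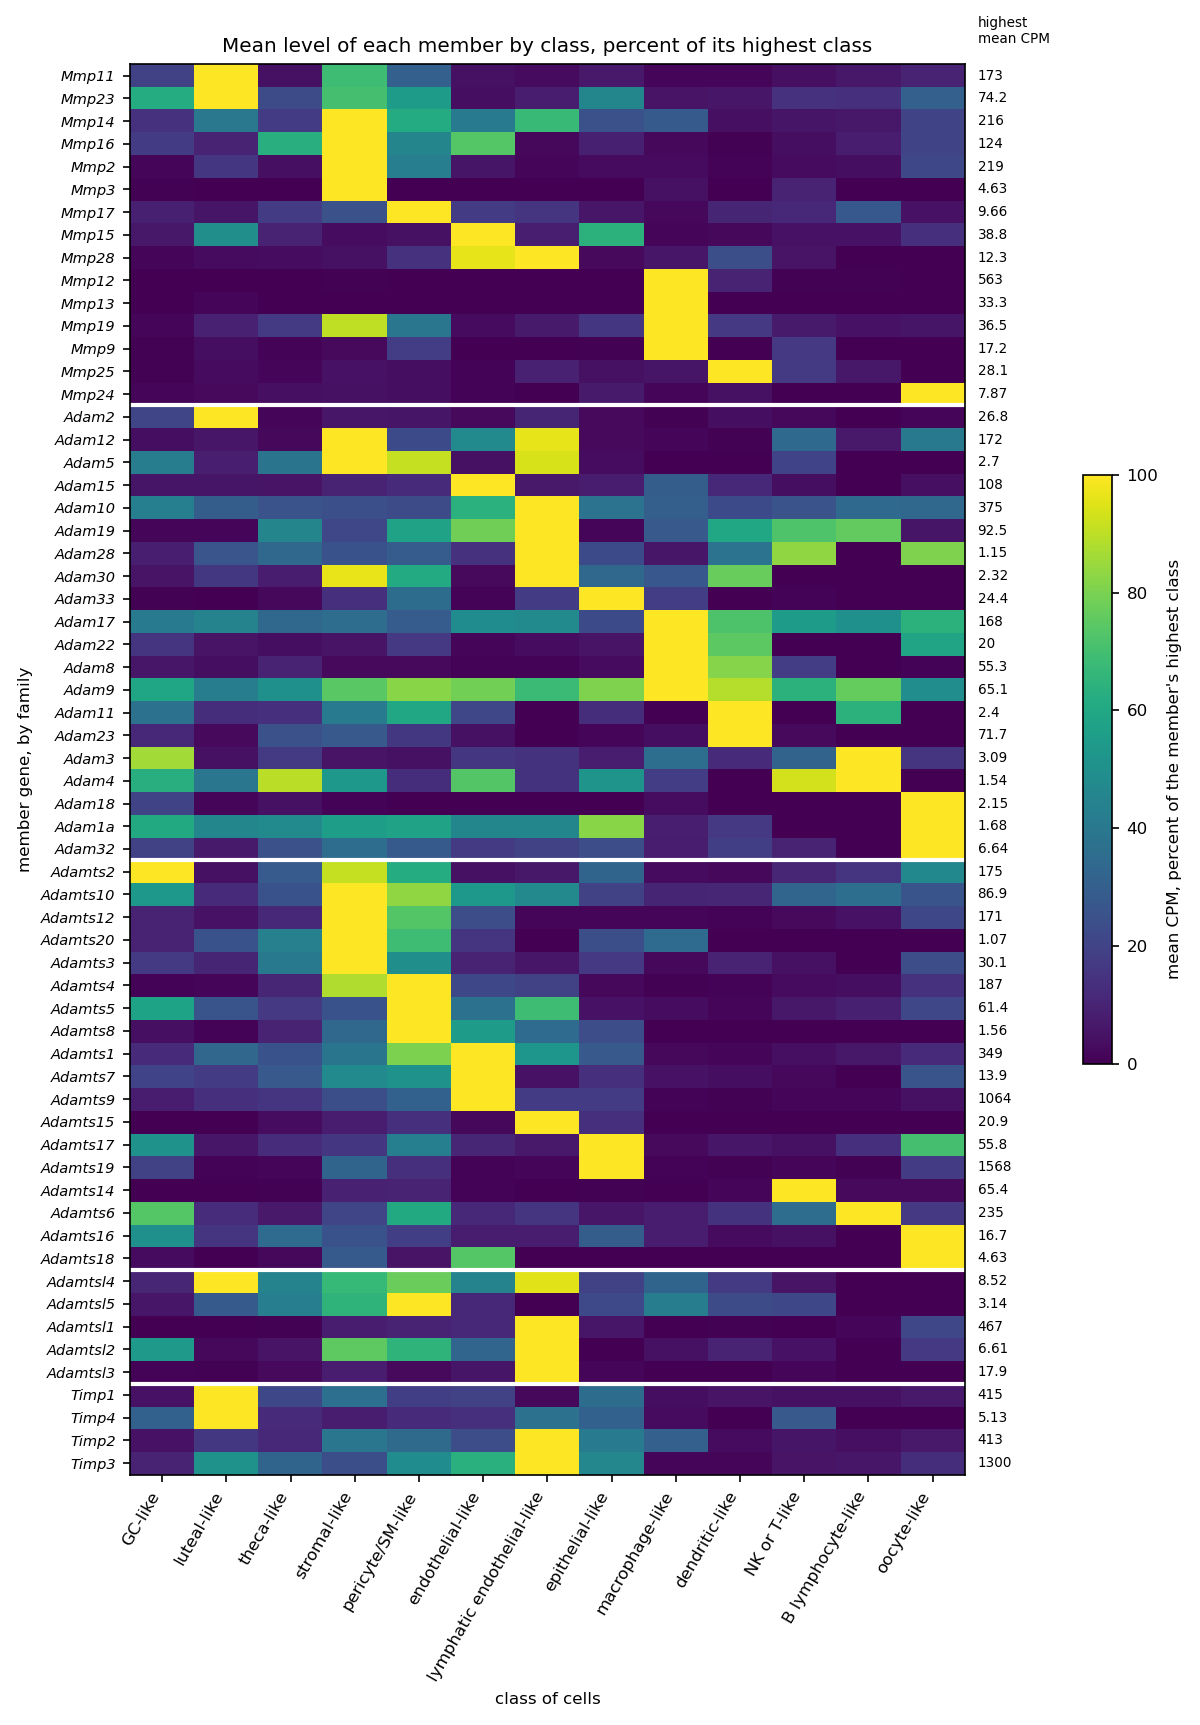
Heat map of the 62 members (rows, grouped by family) in the 13 named classes (columns). Colour gives each gene's mean CPM over the 4 libraries as a percent of its own highest class, so that colours compare classes within a row and not genes. Mmp13 and Adamts14 each fill a single column, macrophage-like and NK or T-like, while Adam10 is coloured in every column.

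The Timp inhibitors each had a distribution of their own. Timp3 (chr10:86300372-86349506), which is held in the matrix and also inhibits several Adam and Adamts proteases, read 1136 and 1396 CPM in Fosl2F/F and 1416 and 1252 CPM in the Fosl2cKO libraries in lymphatic endothelial-like cells. All 4 of these values lay above those of endothelial-like cells, the next class, which read 811, 977, 781 and 741 CPM in the same order of libraries. Further down, mean Timp3 was 664 CPM in luteal-like, 632 in pericyte or smooth muscle-like, 603 in epithelial-like, 418 in theca-like, 313 in stromal-like and 131 in GC-like cells, and the phagocytes stood lowest, with 24.5 CPM in macrophage-like and 16.0 in dendritic-like cells. Timp2, an inhibitor that also takes part in the activation of pro-Mmp2, was likewise highest in lymphatic endothelial-like cells, with 343 and 420 CPM in the Fosl2F/F and 477 and 412 in the Fosl2cKO libraries, and the ranges did not overlap with those of epithelial-like cells, the next class (mean 172 CPM). Timp1 (chrX:20870166-20874735), a secreted inhibitor, was highest in luteal-like cells, but its level there was 1128 CPM in Fosl2F/F 1 and 132, 255 and 147 CPM in the other libraries. The next class, stromal-like cells, read 311, 52.1, 146 and 98.6 CPM, so that the ranges of both classes overlapped. Timp4 stayed low everywhere, with 1.71, 9.60, 7.31 and 1.90 CPM in luteal-like cells, its highest class. Gene bodies of Timp1, Timp3 and Timp4 overlap those of Syn1, Syn3 and Syn2 on the opposite strand.

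The luteal-like values have to be read with their make-up. The class joined 2 clusters, one led by Akr1c18 and Ptgfr, and most luteal-like cells of Fosl2F/F 1 belonged to that cluster (112 of 173), whereas it gave 344 of 1241 cells in Fosl2F/F 2, 15 of 332 in Fosl2cKO 1 and 31 of 293 in Fosl2cKO 2. In luteal-like cells, Timp1 was far higher in Fosl2F/F 1 than in the other libraries. Mmp2 was also highest in Fosl2F/F 1 and lower in Fosl2F/F 2, with the least in the Fosl2cKO libraries. The part of this make-up in the luteal-like values was not tested.

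Among the Mmps, Mmp2 and Mmp14 were highest in stromal-like cells. Mmp2 (gelatinase A, chr8:92827291-92853420 on GRCm38) read 245 and 198 CPM in the Fosl2F/F and 239 and 195 CPM in the Fosl2cKO libraries in stromal-like cells (219 ± 26.4, SD, n = 4). This was above all values of pericyte or smooth muscle-like cells (mean 93.7 CPM), and GC-like cells had a mean of 3.25 CPM. Mmp14, the membrane-type enzyme that activates pro-Mmp2, was also highest in stromal-like cells in every library (227, 132, 209 and 297 CPM), although this range overlapped that of lymphatic endothelial-like cells (mean 146 CPM). The membrane-type Mmp15 went with endothelium instead, at 34.7, 30.3, 39.3 and 50.9 CPM in endothelial-like cells, where it overlapped epithelial-like cells (mean 25.0 CPM). Mmp11 (stromelysin 3) was highest in luteal-like cells at 280, 69.4, 82.2 and 261 CPM, overlapping stromal-like cells at a mean of 120 CPM. Mmp19 split between macrophage-like cells, with 9.45, 25.1, 54.2 and 57.2 CPM, and stromal-like cells, with 18, 37.1, 53.2 and 23.8 CPM, and these ranges overlapped too. Mmp17, another membrane-type enzyme, was highest in pericyte or smooth muscle-like cells in every library (mean 9.66 CPM), and Mmp23 in luteal-like cells (82.9, 53.6, 71.5 and 88.8 CPM). Both ranges overlapped the next class, B lymphocyte-like cells for Mmp17 and stromal-like cells (mean 52.2 CPM) for Mmp23. With finer clusters, stromal-like cells were highest for Mmp23.

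A further group of Mmps belonged to myeloid cells. Mmp13 (collagenase 3) read 12.8 and 38.0 CPM in the Fosl2F/F and 26.1 and 56.1 CPM in the Fosl2cKO libraries in macrophage-like cells, 53.5 times its mean in the next class, luteal-like cells at 0.621 CPM. Mmp12 (macrophage elastase) read 113 and 139 CPM against 1307 and 694 CPM in the same cells, so that it was high there in each library but more so in the Fosl2cKO libraries. Dendritic-like cells, the next class for Mmp12, read 162, 10.1, 0 and 45.4 CPM, and in Fosl2F/F 1 lay above macrophage-like cells. Mmp9 (gelatinase B) was highest in macrophage-like cells in every library at 41.2, 6.13, 5.28 and 16.1 CPM, 5.47 times the mean of the next class. Mmp25, a membrane-anchored leukocyte enzyme, was instead highest in dendritic-like cells, at 22.9, 32.5, 36.8 and 20.5 CPM, 5.90 times the next class.

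The highest class differed among the Adamts proteases. Adamts9, a proteoglycanase (chr6:92772699-92943492), was highest in endothelial-like cells at 776 and 1444 CPM in the Fosl2F/F and 931 and 1102 CPM in the Fosl2cKO libraries, 3.22 times its mean in pericyte or smooth muscle-like cells and with no overlap. Adamts1 (chr16:85793827-85803113), which cleaves versican around ovulation, read 211, 461, 426 and 296 CPM in endothelial-like cells and 252, 332, 361 and 174 CPM in pericyte or smooth muscle-like cells, ranges that overlapped. Adamts4, another versican- and aggrecan-cleaving enzyme, was shared between pericyte or smooth muscle-like cells (103, 242, 288 and 114 CPM) and stromal-like cells (70.0, 201, 289 and 98.2 CPM). In both classes Fosl2F/F 2 and Fosl2cKO 1 were high and the other libraries low, so that the spread did not follow genotype. Adamts5 was highest in pericyte or smooth muscle-like cells at a mean of 61.4 CPM, with GC-like cells taken as 1 class. Atretic-like cells, a subclass of GC-like cells described below, had a higher mean, at 105 ± 68.4 TMM-normalised CPM (SD, n = 4). Adamts19 stood highest in the surface epithelium, with 870, 1675, 1383 and 2346 CPM in epithelial-like cells, 3.1 times the stromal-like mean of 506 CPM. Here too GC-like cells were taken as 1 class. Cumulus-like cells, another of their subclasses, had 645 ± 107 TMM-normalised CPM (SD, n = 4), above that stromal-like mean. Adamts14, one of the procollagen N-propeptidases, was the one member highest in NK or T-like cells, at 40.1, 79.8, 47.0 and 94.6 CPM, 10.4 times the mean of the next class, and it held no UMI in macrophage-like cells. Adamts3, of the same procollagen-processing type, was instead highest in stromal-like cells in every library (mean 30.1 CPM), overlapping pericyte or smooth muscle-like cells.

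Of the 5 ADAMTS-like proteins, secreted relatives of the Adamts proteases without the protease domain, 3 were highest in lymphatic endothelial-like cells, Adamtsl4 in luteal-like and Adamtsl5 in pericyte or smooth muscle-like cells. Adamtsl1 read 284 and 555 CPM in the Fosl2F/F and 403 and 626 CPM in the Fosl2cKO libraries there, 4.70 times the next class. Adamtsl3 was 12.5 times and the protease Adamts15 7.17 times above the next class, at means of 17.9 and 20.9 CPM. None of these 3 ranges overlapped the next class. Adamtsl2, highest there too, had a mean of 6.61 CPM, 1.33 times the stromal-like mean and with overlapping ranges.

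The Adams that act as general sheddases were present in every class. Adam10, which sheds Notch and many other receptors, was highest in lymphatic endothelial-like cells at 369, 341, 336 and 452 CPM and lowest in dendritic-like cells at a mean of 84.2 CPM. Adam17, which releases tumour necrosis factor and the epidermal growth factor-like ligands that relay the ovulatory signal, was highest in macrophage-like cells at 129, 183, 149 and 212 CPM and lowest in epithelial-like cells at a mean of 37.7 CPM. Others were narrower. Adam15 marked endothelial-like cells, with 115, 121, 99.4 and 96.9 CPM, 3.38 times the next class. Adam23, which lacks protease activity, read 144, 52.7, 44.6 and 45.4 CPM in dendritic-like cells, 3.56 times the next class. Adam33 was highest in epithelial-like cells in every library (mean 24.4 CPM, 2.82 times the next class), and Adam2, a gene named for its role in fertilisation, was highest in luteal-like cells in every library at 43.3, 30.1, 7.59 and 26.1 CPM, with a range that overlapped GC-like cells. Adam8, a leukocyte sheddase, read 115, 20.8, 45.6 and 40.0 CPM in macrophage-like cells, highest there in 2 of 4 libraries and overlapping dendritic-like cells at a mean of 45.2 CPM.

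**Figure D2:**
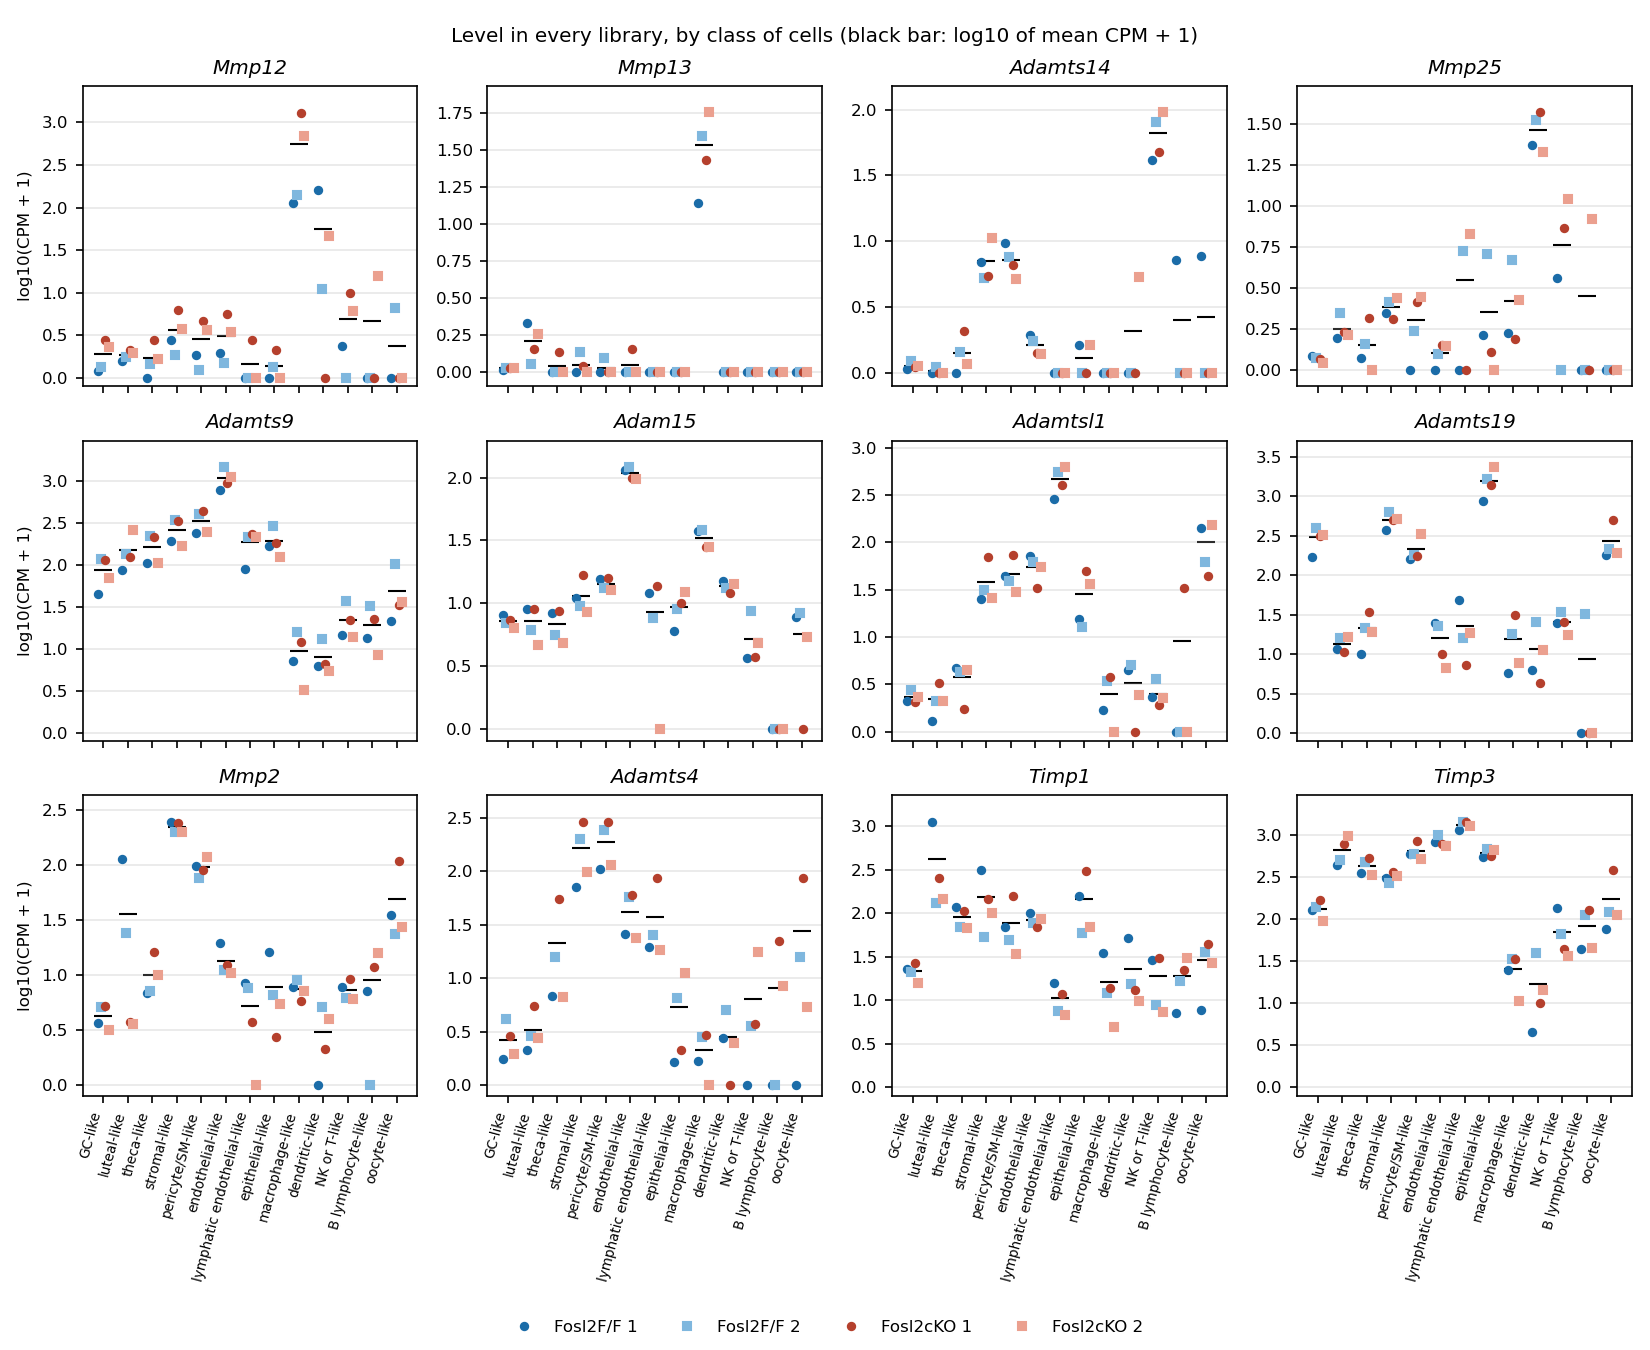
Levels of 12 members in the 13 classes, 1 point per library, on an axis of log10(CPM + 1). The black bar is the mean CPM of the 4 libraries on the same axis. Mmp13 rises above the other classes in macrophage-like cells in all 4 libraries, Adamts14 in NK or T-like cells and Adamts9 in endothelial-like cells, while the luteal-like points of Timp1 and Mmp2 spread widely, with Fosl2F/F 1 highest.

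Summed over families, the Adamts genes made up a mean of 2023 CPM in epithelial-like, 1642 in endothelial-like, 1604 in stromal-like and 1581 in pericyte or smooth muscle-like cells, against 923 in GC-like, 82.4 in dendritic-like and 73.0 in macrophage-like cells. The Timp genes summed to 1724 CPM in lymphatic endothelial-like and 1152 in luteal-like cells, and to 172 in GC-like and 167 in macrophage-like cells. The Mmp genes summed to 778 CPM in stromal-like and 142 in GC-like cells. In macrophage-like cells the Mmp sum was 256 and 276 CPM in the Fosl2F/F and 1478 and 915 CPM in the Fosl2cKO libraries, of which Mmp12 made up 113, 139, 1307 and 694 CPM.

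Pairs of classes were compared, 6 in all, with edgeR's quasi-likelihood test on UMIs summed per class and library, with the library as a block, over all genes. A gene was called at a Benjamini-Hochberg adjusted p under 0.05 and an absolute log2 fold change over 1. CPM values in these comparisons are TMM-normalised within each pair of classes, so that they differ slightly from those above. Classes are drawn from the same cells that were clustered, so that the test tells only how steady a difference was over the libraries.

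Stromal-like cells, the matrix-producing fibroblasts between follicles, exceeded GC-like cells, the avascular epithelium within them, for most members. Of 52 members tested, 29 were higher in stromal-like cells and 7 in GC-like cells, where 20.3% and 14.8% of 16143 genes were. The median log2 fold change was 1.48 over the members and -0.02 over all genes. The largest differences were for Adamts4, at 159 ± 97.1 CPM in stromal-like and 1.68 ± 1.05 CPM in GC-like cells (SD, n = 4; log2 fold change 6.67, SE 0.22, edgeR adjusted p = 8.31e-08), Mmp19 (6.19), Mmp2 (6.15), Adamts14 (5.44) and Adamtsl1 (4.74). All 3 abundant inhibitors were higher as well, Timp2 by 3.08, Timp1 by 2.66 and Timp3 by 1.32, as was Mmp14 by 2.82, each in 4 of 4 libraries. Members higher in GC-like cells were Adam3, at 2.84 ± 3.59 against 0.164 ± 0.126 CPM (log2 fold change of stromal-like over GC-like -3.71), Timp4 (-1.89), Adamts6 (-1.74), Adam2 (-1.68), Adam22 (-1.54), Adamts17 (-1.40) and Adam8 (-1.3). The sheddases Adam10 (-0.76) and Adam17 (-0.20) stayed below the fold threshold.

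Theca-like cells, named as the steroid-producing layer of the follicle wall, held less of many members than stromal-like cells. The class was the cluster led by Cyp17a1. Unnamed clusters of 3687 and 831 cells also scored best for theca markers but were low in Cyp17a1, and the comparison does not cover them. Of 39 tested, 3 were higher and 19 lower, where 8.43% and 14.3% of 13148 genes were, with a median log2 fold change of -0.80 over the members and -0.01 over all genes. Adam12, a membrane-bound Adam of mesenchymal cells, fell from 171 ± 51.8 CPM in stromal-like to 3.98 ± 1.01 CPM in theca-like cells (-5.41, SE 0.20, edgeR adjusted p = 1.26e-07). Adamts19 (-4.72), Mmp2 (-4.67), Adamts14 (-4.14) and Mmp11 (-4.08) followed. Mmp3, a stromelysin, rested on a single library, with 262 of its 269 UMIs in all cells from Fosl2cKO 1, and passed the minimum of 100 UMIs only through it. In stromal-like cells it read 0.175, 0.489, 17.8 and 0 CPM, and theca-like cells held no UMI of it in any library. The members higher in theca-like cells were Adam8 (1.89), Mmp15 (1.57) and Adam19 (1.03). Adam19 was higher in 3 of 4 libraries, and its call was lost without Fosl2F/F 1 (0.79), Fosl2F/F 2 (0.89) or Fosl2cKO 2 (0.99), with DESeq2 (0.98), with finer clusters (0.95) and with the members among the clustering features (0.71). Theca-like cells of Fosl2cKO 1 had a summed theca marker level of 363 CPM, against 3034 to 4990 CPM in the other libraries, and the part of this in these differences was not tested.

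Luteal-like cells, which derive largely from GCs after ovulation, were compared with GC-like cells. Of 46 members tested, 9 were higher and 8 lower, where 9.7% and 12.3% of 15769 genes were, and the median log2 fold change was -0.45 over the members and -0.03 over all genes. Timp1, Timp3 and Timp2 were higher in luteal-like cells, with Timp1 at 423 ± 496 against 20.5 ± 4.58 CPM (3.78, SE 0.51, edgeR adjusted p = 0.00230), Timp3 at 661 ± 212 against 130 ± 29.0 CPM (2.38) and Timp2 at 67.2 ± 32.2 against 19.6 ± 4.82 CPM (1.75), each in 4 of 4 libraries. Timp4 did not pass (1.54, adjusted p = 0.0851). Adamtsl4 (3.13), Mmp15 (2.90), Mmp19 (2.72) and Mmp11 (2.14) were higher too. The 8 members called lower included 5 Adamts proteases, with Adamts19 falling from 298 ± 88.6 to 12.7 ± 3.08 CPM (-4.47), Adamts2, a procollagen N-propeptidase, from 174 ± 29.8 to 7.90 ± 2.14 CPM (-4.42), Adamts17 by 2.80 on the log2 scale, Adamts6 by 2.46 and Adamts10 by 2.08. Adamts1 (1.14), Adamts9 (0.87) and Adamts4 (0.56) did not pass. Adam3 held 669 UMIs in GC-like and 2 in luteal-like cells, a ratio of 53.0 (95% exact interval 14.6 to 438, counting error only). Its GC-like level was 7.46 CPM in Fosl2F/F 1 and 1.88, 0.601 and 0.703 CPM in the other libraries, and luteal-like cells held UMIs of it in Fosl2F/F 1 alone. The fitted difference was -4.87 with Fosl2F/F 1 and -8.15 without it, the latter against luteal-like cells with no UMI and therefore no bound. The fitted value of Adamtsl2 was -4.76.

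Macrophage-like cells shared little with stromal-like cells. Of 40 members tested, 7 were higher and 24 lower in macrophage-like cells, where 18.8% and 23.1% of 12897 genes were, and the median log2 fold change was -2.57 over the members and -0.02 over all genes. Mmp13 was higher at 36.3 ± 19.1 against 0.104 ± 0.153 CPM (8.39, SE 0.43, edgeR adjusted p = 2.36e-07), followed by Mmp12 (8.03), Adam8 (5.55), Mmp9 (5.53) and Adam22 (4.53). Adam15 (2.03) and Adam17 (1.92) completed the members that were higher. Lower were Adamts4 at 1.23 ± 1.02 against 150 ± 95.3 CPM (-6.78), Adam12 (-6.03), Adamts12 (-5.60), Adamts3 (-5.11), Mmp2 (-4.73), Timp3 (-3.28) and Timp1 (-2.91), and Adamts14, without a UMI in macrophage-like cells, was at least 17.5-fold lower. Timp2 (-0.04) and Mmp19 (0.52) did not pass.

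Within GC-like cells, 6 subclasses were told apart by marker genes that are no members. Atretic-like cells, named from markers of regressing follicles, were the highest subclass for 21 of the 62 members (33.9%, against 14.0% of genes), cumulus-like cells, which surround the oocyte, for 19 (30.6%, against 29.6%) and mural-like cells, which line the follicle wall and carry the LH receptor, for 16 (25.8%, against 20.8%). The highest subclass was the same in all 4 libraries for 16 of the 62 members, against 28.8% of all genes.

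Mural-like and cumulus-like cells carried different Adamts proteases. Of 35 members tested, 6 were higher in mural-like and 8 in cumulus-like cells, where 7.9% and 10.8% of 12855 genes were. Adamts16 (chr13:70727802-70841811) read 18 and 37.1 CPM in the Fosl2F/F and 59.7 and 20.7 CPM in the Fosl2cKO libraries in cumulus-like cells, and in TMM-normalised CPM 0.276 ± 0.394 in mural-like against 33.1 ± 18.2 in cumulus-like cells (log2 fold change of mural-like over cumulus-like -6.02, SE 0.49, edgeR adjusted p = 2.78e-05). Adamts17 (chr7:66839735-67153171) read 115, 222, 96.0 and 56.8 CPM in cumulus-like cells, 14.5 times the next subclass, and differed by -4.37 from mural-like cells. Adamts19 (-4.09), Mmp2 (-1.51) and Adamts9 (-1.42) were also higher in cumulus-like cells, in 4, 3 and 4 of the 4 libraries. Mural-like cells held more Adam3 (4.65, but 3.70 without Fosl2F/F 1 and 6.26 without Fosl2F/F 2), Adamts5 (39.4 ± 11 against 3.98 ± 1.75 CPM, 3.32), Adamts7 (3.03), Adam11 (1.52) and Adamts1 (80.1 ± 18.6 against 36.7 ± 8.69 CPM, 1.13, SE 0.21, edgeR adjusted p = 0.00248). Adamts4 did not pass (-0.05). Timp3 did not pass between these subclasses but in plain CPM was highest in mural-like cells on average, at 294, 247, 391 and 131 CPM.

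Atretic-like cells held more of several members than mural-like cells. Of 36 tested, 9 were higher and 3 lower, where 5.4% and 3.58% of 12699 genes were, with a median log2 fold change of 0.17 over the members and 0.00 over all genes. Mmp11 read 86.9 and 174 CPM in the Fosl2F/F and 133 and 88.2 CPM in the Fosl2cKO libraries in atretic-like cells, 4.97 times the next subclass, and was higher than in mural-like cells by 2.50 (SE 0.17, edgeR adjusted p = 0.000174). Adam12, with 11.6, 41.7, 31.9 and 16.1 CPM in atretic-like cells, was higher by 3.48. Adam23 was higher by 3.52, at 31.3, 4.39, 2.04 and 22.7 CPM against 0.909, 0.813, 1.54 and 2.42 CPM in mural-like cells, so that Fosl2F/F 1 and Fosl2cKO 2 were high and Fosl2cKO 1 hardly differed. Adamtsl1 (2.25) and Adamts19 (2.02) followed, and Adamts2 (1.92), Mmp2 (1.82), Adamts6 (1.58) and Adamts5 (1.28) also passed. Adam3 (-5.13), Adamts7 (-1.14) and Timp3, at 122 ± 64.2 against 263 ± 109 CPM (-1.12), were lower. The call on Timp3 was lost without Fosl2F/F 1 (-0.84), with coarser clusters (-0.35) and without integration (-0.49). Adam3 varied in mural-like cells, where Fosl2F/F 1 had 21 CPM against 8.94, 2.16 and 4.55 CPM in the other libraries.

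**Figure D3:**
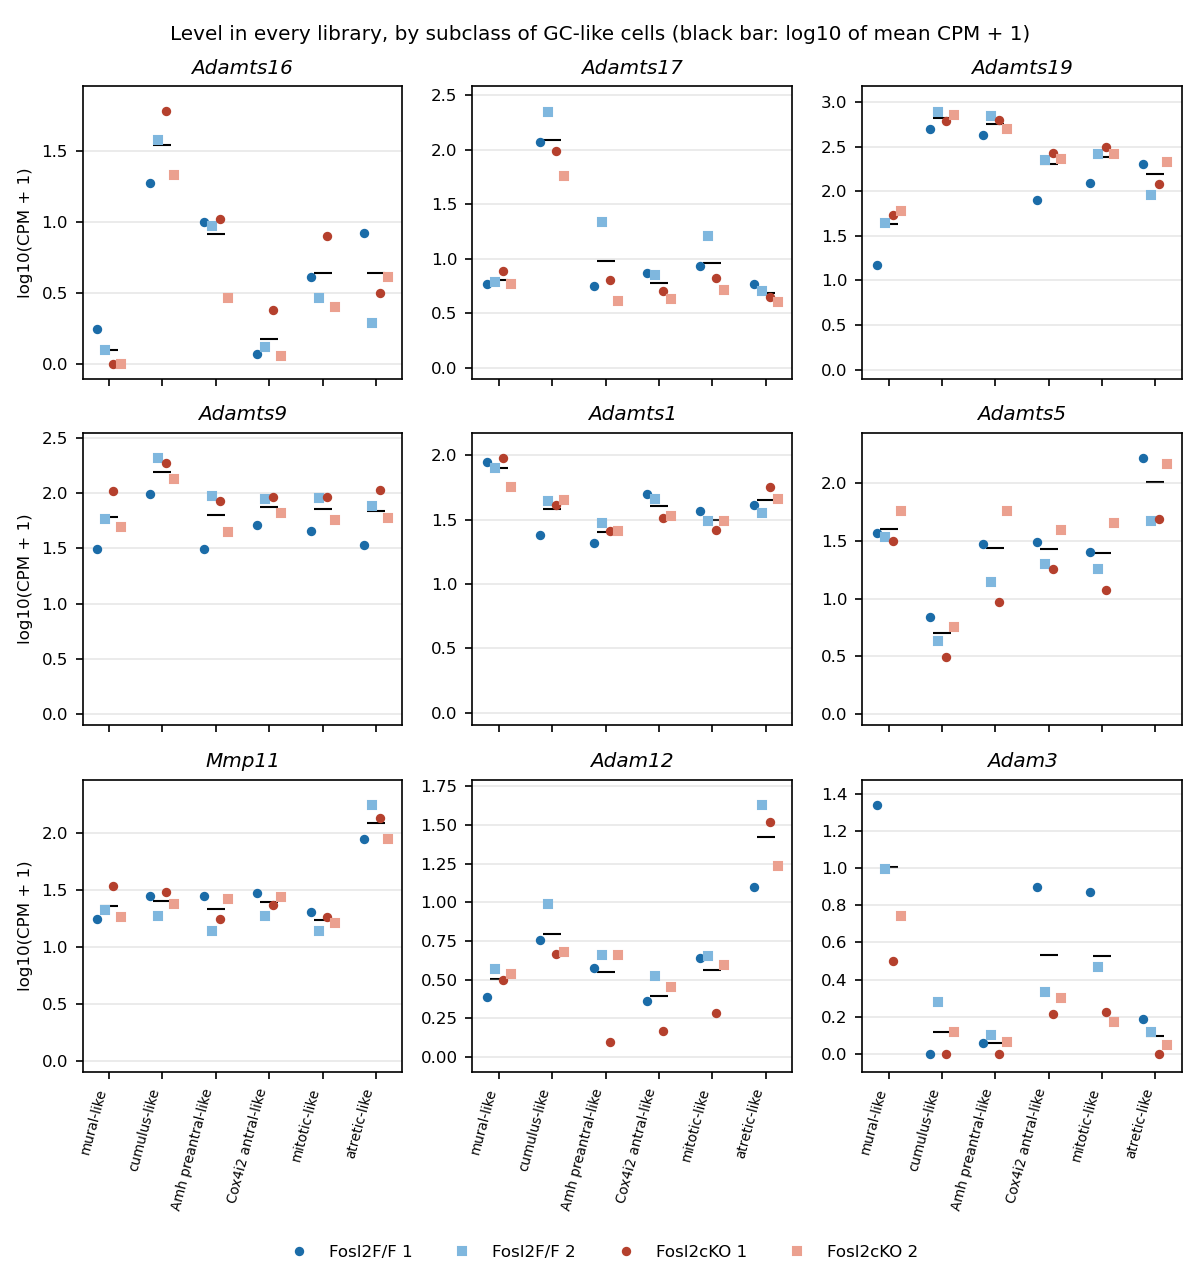
CPM of 9 members in the 6 GC subclasses, 1 point per library. Adamts16 and Adamts17 are highest in cumulus-like cells and Mmp11 and Adam12 in atretic-like cells in all 4 libraries, and the mural-like points of Adam3 spread from 2.16 to 21 CPM.

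The effect of genotype was tested within each class, 2 libraries against 2, by the same edgeR test without a block, and a gene was called at an adjusted p under 0.1 and an absolute log2 fold change over 0.25. A single member was called in a single class, Mmp12 in macrophage-like cells. It read 122 and 131 TMM-normalised CPM in Fosl2F/F and 1325 and 671 in the Fosl2cKO libraries. The log2 fold change was 2.95 (SE 0.37, edgeR adjusted p = 0.0131), 1 of 23 members tested, where 0.228% of 9632 genes were called, and DESeq2 called the same number of members and 34 genes. The call was lost when likely doublets were kept (log2 fold change 3.27, adjusted p = 0.115) and held under the other alternatives run, with log2 fold changes from 2.39 to 3.35. Without Fosl2F/F 2, which had the shallowest cells, 7 members and 982 of 10251 genes were called in macrophage-like cells, without Fosl2cKO 2 there were 3 members and 52 of 9978 genes, and without Fosl2cKO 1 there were 2 members and 62 of 10054 genes. Macrophage markers summed to 6400 and 8062 CPM in the Fosl2F/F and 6095 and 7738 CPM in the Fosl2cKO libraries, all 7 of them detected, ranges that overlapped between the groups. At an unadjusted p under 0.05 there were 5 of the 23 members, against 5.7% of genes. Markers of some other cells were higher in the macrophage-like cells of both Fosl2F/F libraries. Summed GC markers stood at 567 and 361 against 190 and 166 CPM and luteal markers at 149 and 298 against 91.8 and 72.8 CPM. Stromal markers stood at 166 and 193 against 138 and 123 CPM, and endothelial, lymphatic endothelial and oocyte markers were higher too. Theca, pericyte or smooth muscle, NK or T, B lymphocyte, dendritic and epithelial markers overlapped between the groups. The part of these markers in the result was not tested. Mmp12 lies at chr9:7344381-7369499 and its gene body overlaps that of Mmp1b on the opposite strand, a gene with 8 UMIs in all libraries together, against 8056 for Mmp12.

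In several classes that hold little Mmp12, both Fosl2cKO libraries also lay above both Fosl2F/F libraries. Groups without overlap were frequent among all genes, as the shares given below for GC-like and stromal-like cells show. For endothelial-like and pericyte or smooth muscle-like cells the share is not given. In GC-like cells Mmp12 read 0.222 and 0.327 TMM-normalised CPM against 1.75 and 1.29 (log2 fold change 2.49, edgeR adjusted p = 0.414), and in stromal-like cells 1.81 and 0.829 against 5.36 and 2.72 (1.65, adjusted p = 0.637). In plain CPM, endothelial-like cells read 0.965 and 0.501 against 4.56 and 2.44, and pericyte or smooth muscle-like cells 0.832 and 0.244 against 3.72 and 2.69. Levels near these can come from free RNA in the droplets, which was not tested. Dendritic-like cells did not follow, at 171 and 9.78 against 0 and 45.4 TMM-normalised CPM (-2.17, adjusted p = 0.860).

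Of the members without overlap at a mean of 20 CPM or more, Mmp19 and Timp2 came next by size in macrophage-like cells, and neither passed. Mmp19 read 10.2 and 23.7 against 55.0 and 55.3 TMM-normalised CPM (log2 fold change 1.64, SE 0.38, edgeR adjusted p = 0.312). Timp2 read 66.3 and 93.2 against 122 and 220 (1.07, SE 0.36, adjusted p = 0.682). In both, the Fosl2F/F and Fosl2cKO libraries did not overlap, as for 9 of the 23 members tested, against 34.6% of all genes in this class.

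Timp2 also did not overlap between the groups in stromal-like, theca-like and GC-like cells, as 28.1%, 29.9% and 31.0% of all genes did not, with the Fosl2cKO libraries higher. Its TMM-normalised CPM were 147 and 122 against 184 and 197 in stromal-like cells, 36.7 and 32.3 against 74.8 and 43.1 in theca-like cells and 15.9 and 16.6 against 19.4 and 26.8 in GC-like cells, log2 fold changes of 0.49, 0.75 and 0.51. In theca-like cells the higher value, 74.8, was in Fosl2cKO 1, where the summed theca marker level was 363 CPM against 3034 to 4990 CPM in the other libraries, and the part of this in the difference was not tested. None passed, and in luteal-like and endothelial-like cells the groups overlapped, at 114 and 46.3 against 42.6 and 65.6 and at 92.0 and 99.3 against 78.0 and 123. Mural-like, cumulus-like, atretic-like, pericyte or smooth muscle-like and NK or T-like cells were also without overlap in Timp2, again with Fosl2cKO higher and without a call. The share of all genes is not given for these. All classes come from the same 4 libraries, so that they are not independent of each other.

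In GC-like cells, where the Cre of the Fosl2cKO mice is meant to act, no member of 46 was called by edgeR, where 0.0058% of 17255 genes were. At an unadjusted p under 0.05 there were 5 members, against 4.71% of genes, and DESeq2 called 2 members and 169 genes. Mmp23, a membrane-anchored Mmp, read 54.9 and 50.6 TMM-normalised CPM in the Fosl2F/F and 37.8 and 41.2 in the Fosl2cKO libraries (log2 fold change -0.42, SE 0.16, not called). Mmp11 read 35.4 and 28.7 against 38.0 and 35.6, and Adamts10 41.6 and 46.1 against 48.3 and 48.8, small differences within 0.20 on the log2 scale. Members whose groups did not overlap numbered 13 of 46, against 31.0% of all genes. Mmp23, Mmp11 and Adamts10 were picked from these, so that their lack of overlap is not a result.

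No member was called in the GC subclasses either, where 0.0163% of genes were in mural-like, 0.0682% in cumulus-like, 0.00763% in atretic-like, 0.00697% in mitotic-like, 0.00821% in Amh preantral-like and 0.00793% in Cox4i2 antral-like cells. Unadjusted p-values under 0.05 were reached by 3 of 30 members in mural-like cells (4.69% of genes), 4 of 34 in cumulus-like (3.91%), 2 of 36 in atretic-like (5.52%) and 6 of 41 in mitotic-like cells (7.14%), and DESeq2 called 1, 1, 0 and 1 members among 56, 59, 52 and 167 genes. In Amh preantral-like and Cox4i2 antral-like cells, 2 of 30 and 4 of 30 members did (5.34% and 8.83% of genes), and DESeq2 called none. Of the members without overlap at a mean of 20 CPM or more, Adamts17 had the largest fold in cumulus-like cells, at 121 and 218 TMM-normalised CPM in the Fosl2F/F and 93.2 and 56.8 in the Fosl2cKO libraries (-1.19, SE 0.31, edgeR adjusted p = 0.386). Mmp14 read 26.4 and 29.2 against 47.4 and 38.6 in the same cells (0.61, adjusted p = 0.871). In mural-like cells, Adamts2 read 52.9 and 83.1 against 96.9 and 151 (0.88, adjusted p = 0.988) and Adamts19 14.6 and 42.9 against 51.7 and 57.6 (0.98). Summed GC markers of mural-like cells stood at 20632 and 14313 CPM in the Fosl2F/F and 10914 and 13899 CPM in the Fosl2cKO libraries. The part of this in the differences was not tested. The members named here for cumulus-like and mural-like cells were picked for groups without overlap, so that the lack of overlap is not a result. For Adamts17 in cumulus-like and for Adamts2 and Adamts19 in mural-like cells, the Fosl2F/F libraries differed by more than the groups' nearest values did. For Mmp14 in cumulus-like cells they did not.

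Other classes were likewise without a call among the members by edgeR. Of all genes, 0.266% were called in stromal-like, 0.0401% in theca-like, 0.0156% in luteal-like, 0.213% in endothelial-like, 0.116% in epithelial-like, 0.0732% in NK or T-like and 0.00811% in pericyte or smooth muscle-like cells, and none in dendritic-like, B lymphocyte-like, lymphatic endothelial-like and oocyte-like cells. In luteal-like cells, 5 of 33 members reached an unadjusted p under 0.05 (10.9% of genes) and DESeq2 called 3 members and 441 genes. Mmp2 read 116 and 23.9 against 2.66 and 2.38 TMM-normalised CPM there (-4.79, SE 0.84, edgeR adjusted p = 0.241), and Adamts1 41.2 and 52.2 against 256 and 102 (1.93, SE 0.47, adjusted p = 0.307). The luteal marker sum ran in parallel with the make-up of the class, at 12807 and 6428 CPM in the Fosl2F/F and 1985 and 3820 CPM in the Fosl2cKO libraries, and its part was not tested. In NK or T-like cells, Timp3 read 139 and 62.6 against 44.0 and 34.8 (-1.45, SE 0.34, adjusted p = 0.244), beside GC markers at 1276, 432, 378 and 318 CPM. In epithelial-like cells, Adamtsl1 read 14.6 and 11.9 against 49.99 and 33.9 (1.67, SE 0.35, adjusted p = 0.126), and in lymphatic endothelial-like cells Adam12 read 219 and 255 against 107 and 82.6 (-1.35, SE 0.38, adjusted p = 0.459). In the latter cells, summed GC markers stood at 863 and 328 against 214 and 151 CPM. Lymphatic endothelial markers stood at 17742 and 13735 against 10103 and 13026 CPM, and the part of both was not tested. Endothelial-like cells went the other way for Adam12, at 37.4 and 71.5 against 81.3 and 141 (0.95), though the difference between these classes was not tested. Members named in this paragraph were picked for groups without overlap, so that the lack of overlap is not a result. In stromal-like, theca-like and endothelial-like cells 3 of 47, 3 of 34 and 2 of 28 members reached an unadjusted p under 0.05, against 4.21%, 3.99% and 4.68% of genes, and DESeq2 called none. The same held for 2 of 38 members in pericyte or smooth muscle-like (3.7% of genes), 2 of 27 in epithelial-like (3.28%), 3 of 14 in lymphatic endothelial-like (5.24%), 1 of 16 in NK or T-like (9.72%), 1 of 10 in dendritic-like (5.8%), 1 of 9 in oocyte-like (4.98%) and 0 of 4 in B lymphocyte-like cells (10.2%), again without a call by DESeq2.

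**Figure D4:**
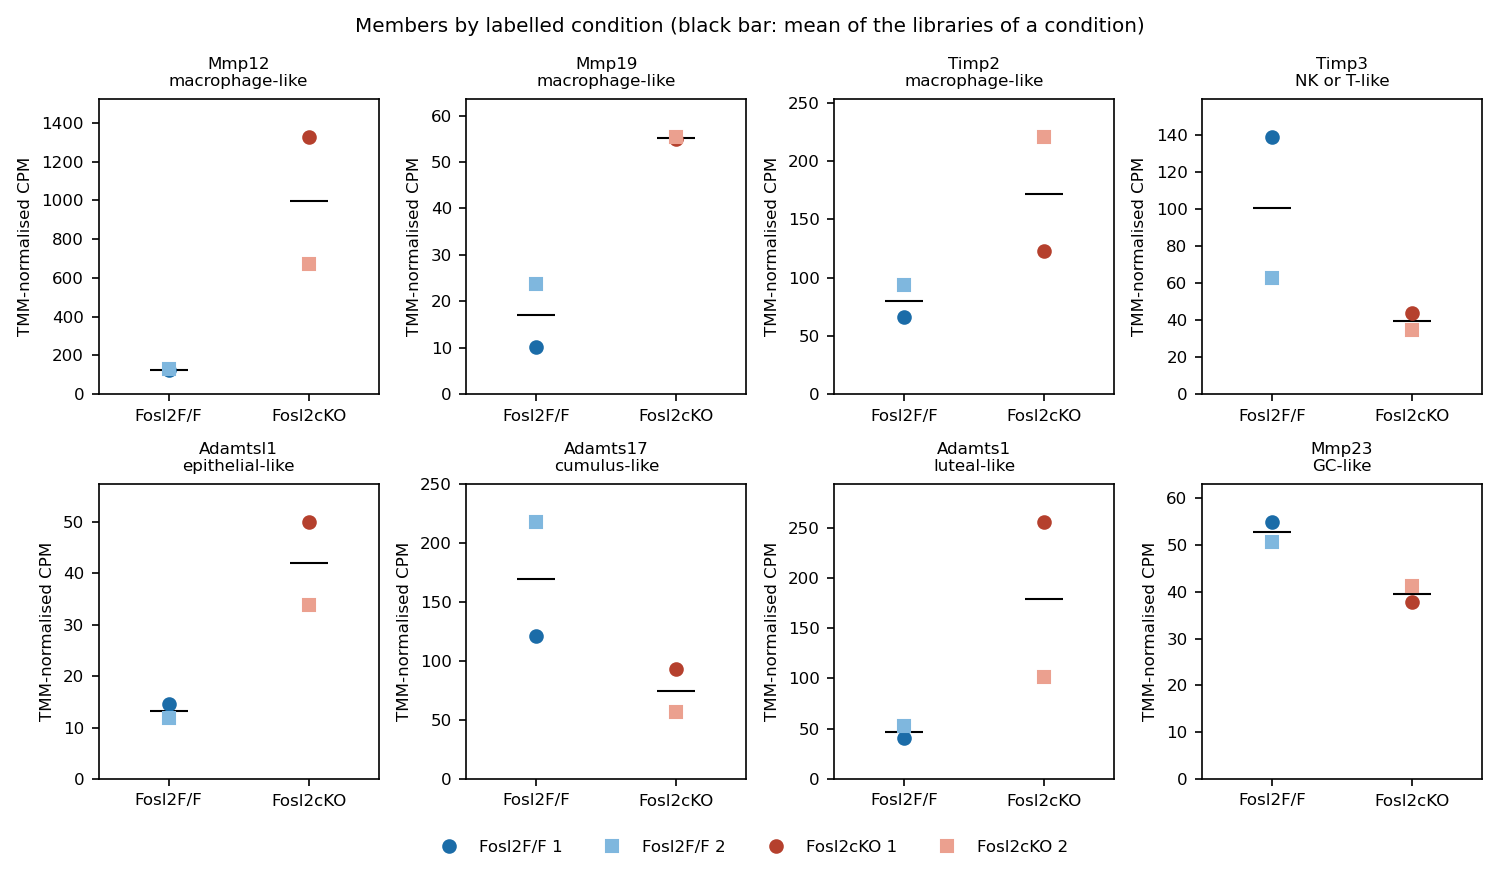
TMM-normalised CPM of 8 members by genotype in the class named above each panel, 1 point per library, with axes from 0. The panels were picked for a call or for groups without overlap, so that their separation is not a result. Mmp12 in macrophage-like cells is the only panel with a call, at 122 and 131 in the Fosl2F/F against 1325 and 671 in the Fosl2cKO libraries.

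Whether the effect of genotype differed between GC-like cells, where the Cre of the Fosl2cKO mice is meant to act, and stromal-like cells was tested as an interaction in edgeR. None of 52 members and none of 16143 genes passed an adjusted p under 0.1, 4 members reached an unadjusted p under 0.05 (3.23% of genes did), and DESeq2 called 0 members and 6 genes.

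Further genes of extracellular proteolysis, 52 in all, were followed beside the members, comprising other inhibitors, activators, proteases and substrates. Unlike the members they were open to selection as clustering features, and some are class markers, so that their class differences are a description. Between stromal-like and GC-like cells, 26 of 48 tested were higher in stromal-like and 9 in GC-like cells, against 20.3% and 14.8% of all genes. The membrane-anchored Mmp inhibitor Reck (3.54) and the plasminogen activator gene Plat (4.84) were higher in stromal-like cells, and the proprotein convertase Pcsk6 (-2.27), the protease inhibitor Serpine2 (-2.70) and the proteoglycan Vcan (-1.62), a substrate of Adamts1, were higher in GC-like cells. Reck was also far lower in macrophage-like than in stromal-like cells (-5.22), where 7 of 40 were higher and 22 lower, against 18.8% and 23.1% of all genes. Pappa, a protease of insulin-like growth factor binding proteins, was higher in mural-like than in cumulus-like cells (5.29) and lower in atretic-like than in mural-like cells (-3.42), and 6 of 38 were higher and 11 lower in the first of these comparisons, against 7.9% and 10.8% of all genes. By genotype, none of the 52 was called in any class.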

How the data were processed

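Single-cell RNA was measured in 4 mouse ovary libraries, 2 Fosl2F/F and 2 Fosl2cKO. The deposited values are UMI counts per gene and barcode, made by the authors with Cell Ranger on GRCm38 (mm10). The study's methods name CellRanger 3.1.0, the submitters' processing notes Seurat 4.1.0 and the file header cellranger-7.1.0. The methods also name CellBender, and whether the deposited counts hold its correction is not given in the sources used here. Barcodes were dropped below 500 genes, at 1000 UMIs or fewer, or where mitochondrial UMIs reached 10% or hemoglobin UMIs 0.1%, and the top 0.8% of scrublet scores (scanpy) per 1000 cells were removed as doublets, since DoubletFinder, which the methods name, was not used here. Libraries were integrated with SCTransform and reciprocal principal components (Seurat 5.3.0, sctransform 0.4.2, 3000 features without the members, 30 dimensions) and clustered at resolution 0.8, GC-like cells again at 0.5. Clusters were named X-like from fixed markers; 3 large clusters stayed unnamed because defining markers were low. UMIs were summed per class and library and tested with edgeR 4.0.16 (filterByExpr, TMM, quasi-likelihood), beside DESeq2 1.42.0, adjusting by Benjamini-Hochberg over all genes tested. Libraries were the replicates. Tests were checked on simulated data. Members and gene lists were chosen with earlier results of these data known. Genes to name were the Timps, 13 Mmp, Adam and Adamts genes set by name, up to 3 members with the largest fold per highest class, the 5 largest in each direction per class contrast, and, per genotype comparison, the members called and the 3 largest without overlap at 20 CPM or more. Some of these are given by fold or count only or left out, and others named were chosen after their values were seen. Intervals and floors (3 counts) cover counting error only. Same-numbered libraries share only a number. Alternatives were other size factors, DESeq2, no gene filter, other thresholds, cells over 2000 UMIs, doublets kept, members among the clustering features, coarser or finer clusters, no integration, the replicate block and leaving out each library. No protein sequences were used here.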

Additional observations from a re-analysis of the deposited data

How the results depend on the processing

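Counts of members called between classes stayed within 1.5 times of the reported ones under the alternatives run, with 1 exception. Mural-like against cumulus-like cells gave 22 members, not 14, when the minimum fold was dropped. The share of all genes called is not given for these counts or for the leave-one-out counts of the class contrasts that follow. They therefore do not set members apart from other genes. Leaving out each library in turn gave 36 to 41 for stromal-like against GC-like, 20 to 23 for theca-like against stromal-like, 17 to 21 for luteal-like against GC-like, 11 to 14 for mural-like against cumulus-like, 8 to 12 for atretic-like against mural-like and 30 to 32 for macrophage-like against stromal-like cells. It gave 26 to 31 members with a steady highest class (35.3% to 36.8% of all genes, against 29.7% over 4 libraries) and 48 to 51 members that reached 5 CPM in some class. The highest class was the reported one for 55 to 57 of the 62 members in these fits. It was so for 51 with cells over 2000 UMIs or doublets kept, 56 without integration or with coarser clusters, 60 with finer clusters and 61 with members among the features. Mmp19, Adam12, Adam23, Adamts4, Adamtsl4 and Mmp23 were among those that moved. By genotype the counts were less steady, and with DESeq2 they were 2 in GC-like, 1 each in cumulus-like, mural-like and mitotic-like and 3 in luteal-like cells. The numbers of all genes called by DESeq2 are given above. For the settings that follow, the share of all genes called is not given, so the counts do not set members apart from other genes. Without a gene filter they were 4 in GC-like, 1 in cumulus-like, 2 in endothelial-like, 5 in luteal-like, 6 in macrophage-like, 5 in mitotic-like, 3 in mural-like, 1 in theca-like and 10 in the other named classes, and the interaction gave 1. Macrophage-like cells gave 2 with cells over 2000 UMIs and 0 with doublets kept. Leave-one-out counts ran from 0 to 2 in GC-like (2 without Fosl2cKO 1 or 2), 0 to 1 in cumulus-like (1 without Fosl2cKO 1 or 2), 0 to 2 in endothelial-like (2 without Fosl2cKO 1), 0 to 1 in luteal-like (1 without Fosl2F/F 2), 1 to 7 in macrophage-like (7 without Fosl2F/F 2, 3 without Fosl2cKO 2, 2 without Fosl2cKO 1), 0 to 3 in mitotic-like (3 without Fosl2cKO 1 or 2), 0 to 1 in mural-like (1 without Fosl2cKO 2), 0 to 2 in stromal-like and in theca-like (2 without Fosl2cKO 2) and 0 to 12 in the other named classes (12 without Fosl2cKO 2, 8 without Fosl2F/F 2, 5 without Fosl2cKO 1), where the lone library is taken to vary like the other group. Replicate numbers share only a number, with correlations of same-numbered deviations from -0.342 to 0.0715, and the replicate block gave 2 in macrophage-like and 2 in the other named classes. The crossed pairing, a replicate block chosen after seeing the data, gave 1 in cumulus-like, 2 in endothelial-like, 2 in macrophage-like, 4 in mitotic-like, 1 in mural-like and 6 in the other named classes. Of the values of single members, 808 of the class contrasts kept direction and call and 30 lost the call, Adam19 in theca-like against stromal-like cells most often, and 738 by genotype kept theirs, 41 gained a call, 1 lost it and 1 changed sign, Adam17 in B lymphocyte-like cells (-0.021 without Fosl2cKO 1, up to 0.22 without another library). The members followed by genotype were picked for a call, which only Mmp12 in macrophage-like cells had, or for groups without overlap. Their kept direction, and for the others the kept lack of a call, are therefore not a result. The causes were not tested. Depth limits the members near 100 UMIs and the classes of 20 to 50 cells.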

Other observations

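A small stromal-like cluster led by Clec3b, C3 and Dpt (211 cells, 13 to 97 per library) was the highest of all clusters for 14 of the 62 members (22.6%, against 6.0% of genes), and for 7 of them in all 4 libraries. Mmp2 read 410, 477, 395 and 283 CPM there in the order Fosl2F/F 1, Fosl2F/F 2, Fosl2cKO 1 and Fosl2cKO 2, above the mean of 212 CPM in the main stromal-like cluster. Adamts3 read 116, 120, 98.7 and 144 CPM, 4.41 times the next cluster, and Mmp19 63.0, 378, 110 and 151 CPM, 4.81 times the next. Adamts2 (mean 459 CPM), Mmp23 (189), Adam33 (50.8) and Adam5 (9.77) were the others that were highest there in every library. Mmp3 (stromelysin 1) was at 10.5, 21.9, 199 and 0 CPM, so that its level rested on Fosl2cKO 1. Its 10.5 CPM stood for the only Mmp3 UMI of Fosl2F/F 1. The mean of Adam5 lies below this level, so that low values in this cluster rest on few UMIs. Timp2 was highest there as well on average, at 389, 367, 482 and 477 CPM, whereas Timp3 was not, at 73.5, 137, 155 and 171 CPM.

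Of the large clusters without a name, the one led by Enpep, Asb4 and Hhip had much Adamts4, at 112, 258, 488 and 107 CPM, and its cycling counterpart had 89.4, 245, 454 and 87.1 CPM. Both followed the order of libraries seen for Adamts4 in stromal-like cells, with Fosl2F/F 2 and Fosl2cKO 1 high. Adamts1 did so too, at 122, 194, 307 and 86.4 CPM in the first of these clusters and 82.3, 159, 285 and 76.5 CPM in the other. The unnamed cluster led by Abcb1b, Hao2 and Star had Timp3 at 500, 854, 774 and 692 CPM and Timp1 at 459, 60.6, 378 and 60.6 CPM, with 1 library of each genotype high in Timp1.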
